A study of Mus musculus with 3 samples.

Results

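The nuclear genes for the respiratory chain and the ATP synthase were taken as the protein-coding genes of the GENCODE M21 annotation whose symbols begin with Nduf, Uqcr, Cox4 to Cox8 or Atp5, together with Sdha, Sdhb, Sdhc and Sdhd. The rule found 94 gene entries with 93 symbols, of 55536 genes in the tables, because Atp5o has 2 entries. The RNA came from naive CD4 T cells with an alpha-beta receptor, labelled as derived from the thymus, of 1 adult male mouse aged 5 months of the strain B6.SJL-Ptprca Pepcb/BoyJ. PolyA RNA of this 1 biological replicate was sequenced in 3 technical libraries, called libraries 1, 2 and 3 after their technical replicate numbers. There was no second group, treatment or genotype, so levels were compared between genes and between libraries only, and every SD measures the spread of technical libraries, not of animals.

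The respiratory chain passes electrons from NADH (through complex I) and succinate (through complex II) to complex III and then to oxygen at complex IV, and pumps protons across the inner mitochondrial membrane. Complex V, the ATP synthase, uses the returning protons to make ATP. Most subunits are encoded in the nucleus and a few in mitochondrial DNA, and several complex IV subunits exist as a widely expressed form and as a form known from heart, skeletal muscle, lung or testis. Naive T cells are small resting cells that are known to draw much of their ATP from oxidative phosphorylation.

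The deposited M21 tables held 14837442, 18207118 and 17505621 expected counts in libraries 1, 2 and 3. All 8 T cell markers examined were between 429 and 2632 TPM (a level scaled for transcript length and for the total of the library). Markers of B cells (1 of 4 detected, summed 2.07 to 2.96 TPM), myeloid cells (1 of 4, 2.06 to 3.35), natural killer cells (0 of 2, 0.12 to 0.29) and erythroid cells (1 of 3, 1.20 to 1.55) were low. Of the CD8 genes, Cd8a was at 0.14 ± 0.046 TPM and Cd8b1 at 17.0 ± 0.24 TPM. Heart and skeletal muscle markers (0 of 5 detected, summed 0.15 to 0.48 TPM) and testis markers (0 of 4, 0.07 to 0.32 TPM), which mark tissues of the restricted paralogs, were near 0 in each library.

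Nearly the whole set was present. Of the 94 entries, 87 were detected, meaning 1 TPM or more in every library, where 44.6% of the 22028 protein-coding genes were detected. The 7 that were not detected are all restricted forms of complex IV subunits. The median member stood at 110 ± 1.32 TPM (SD over 3 libraries), beside 31.4 ± 1.40 TPM for the median detected protein-coding gene, and 45 members were at 100 TPM or more in every library. Together the members held 1.33 ± 0.0086% of all TPM.

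The complexes differed in level. Median TPM in libraries 1, 2 and 3 was 96.4, 94.7 and 99.9 for the 36 complex I subunits. For the 4 complex II subunits it was 136, 120 and 147, and for the 8 complex III subunits 172, 171 and 166. These 3 complexes kept their order in each library, and their ranges over libraries did not overlap. For the 19 complex IV genes the median was 147, 153 and 135 TPM, a range that overlaps that of complex II, but 8 of those genes are restricted forms. The 11 broadly expressed complex IV subunits alone had a median of 232 ± 13.8 TPM, above the 196 ± 8.63 TPM of the 17 complex V subunits. The complex V medians in the 3 libraries were 194, 205 and 188 TPM, and the broad complex IV medians 232, 246 and 218. For these lists the ranges of the libraries did not overlap. Low forms were left out of complex IV only, while complex V keeps Atp5g2 (10.2 ± 1.56 TPM) and a further Atp5o entry (31.4 ± 12.1 TPM). Without both, the middle value of complex V in library 3 is that of Atp5d, 226 TPM, above the 218 of complex IV. The order of these 2 complexes therefore depends on the entries listed. The 8 assembly factors of complex I were far below its subunits, with a median of 15.5 ± 1.45 TPM. Members of a complex are not replicates, so these medians describe the lists and carry no test.

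**Figure D1:**
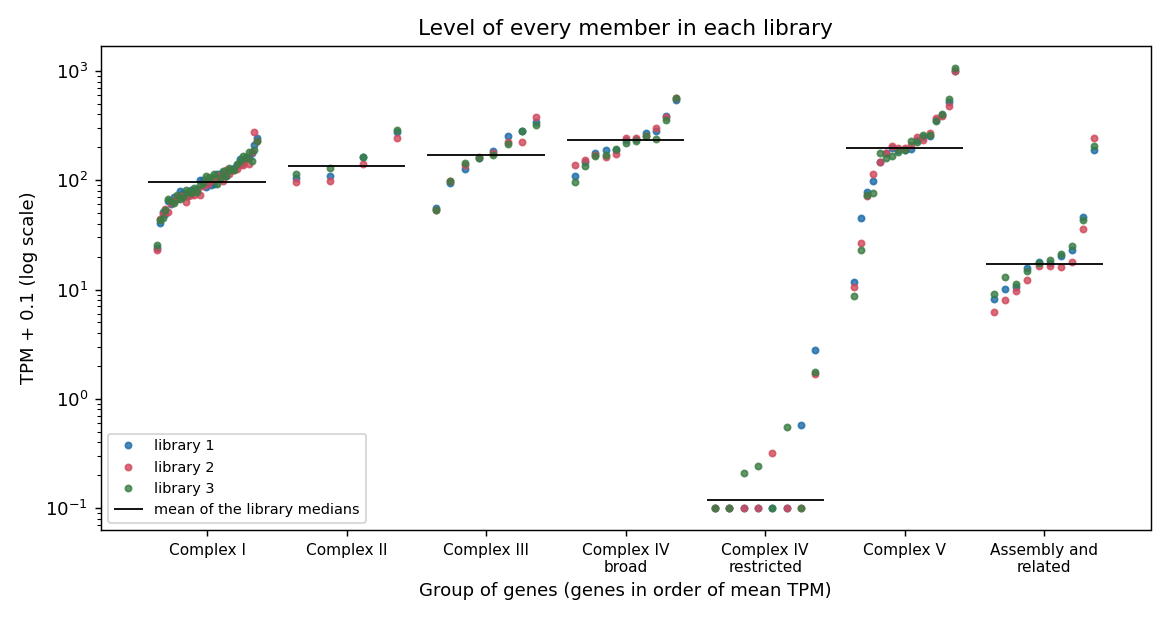
TPM + 0.1 on a log axis for all 94 members, 1 point per library, arranged by complex and, within it, by mean TPM; black lines are the mean of the 3 library medians. The lines rise from 97.0 TPM for complex I to 232 TPM for the broad complex IV subunits, and the restricted complex IV forms other than Cox6b2 lie below 1, most of their points at 0.1, the value of a gene listed at 0.

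Complex I oxidises NADH. All 36 of its subunits were detected, between 24.2 and 234 TPM. The 7 core subunits, which carry the flavin and the iron-sulphur clusters or line the path of the electrons to quinone, lay within a narrow range. Ndufs7, the highest of them, was at 156, 138 and 148 TPM, and Ndufs1, the lowest and the largest subunit, was at 82.0, 73.8 and 84.6 TPM. Ndufs3 (100 ± 8.38), Ndufs8 (88.2 ± 13.7), Ndufv1, which binds NADH (122 ± 8.19), and Ndufv2 (94.5 ± 5.67) lay between them, and several neighbours in that order did not differ beyond their spread. Of the TPM of Ndufs7, 82.4% lay on transcripts not annotated as protein coding. In the other core subunits that share ran from 0% (Ndufs8 and Ndufv2) to 46.85% (Ndufs3), so the order holds for all transcripts summed. Among the 29 supernumerary subunits, which surround the core, the highest were Ndufa3 (234 ± 8.13 TPM), Ndufa6 (227 ± 46.1 TPM) and Ndufa2 (170 ± 16.9 TPM). Of the TPM of these 3 genes, 94.9%, 55.2% and 0% lay on transcripts not annotated as protein coding. The lowest were Ndufb4 (23.9, 23.1 and 25.6 TPM) and Ndufs5 (40.7, 44.2 and 42.8 TPM). Ndufb4 shares 38.7% of the 50-base words of its most abundant transcript with the processed pseudogene Ndufb4c, whose entry stood at 96.6, 100.3 and 87.2 TPM, above the gene itself. How reads were divided between such entries was not tested.

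Complex II, succinate dehydrogenase, is also an enzyme of the tricarboxylic acid cycle and has no mitochondrially encoded subunit. Sdha, the flavoprotein that oxidises succinate, was at 275, 246 and 289 TPM. Sdhb, the iron-sulphur subunit, was at 162, 142 and 163 TPM. The ratio of Sdha to Sdhb was 1.73 ± 0.036 over the 3 libraries, a smaller relative spread than either gene had alone. The membrane anchors Sdhc (105 ± 8.82 TPM) and Sdhd (112 ± 16.4 TPM) had overlapping SDs. Within each library Sdhd was the higher, at 109, 97.5 and 130 TPM beside 105, 95.4 and 113 TPM for Sdhc. All 4 genes were lowest in library 2.

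In complex III, Uqcrfs1, the Rieske iron-sulphur protein, was at 128, 139 and 142 TPM. Uqcrh, the hinge protein that contacts cytochrome c1, was the highest subunit at 342, 379 and 322 TPM, followed by Uqcrc1, a large matrix-facing core protein (262 ± 34.0 TPM), and by Uqcr10 (231 ± 20.4 TPM). That order is for all transcripts summed. Those not annotated as protein coding held 57.9% of the TPM of Uqcrh, 9.45% of Uqcrc1 and 28.6% of Uqcr10. Uqcrc2, whose product pairs with that of Uqcrc1, was at 97.0 ± 2.39 TPM, and Uqcr11 was the lowest at 53.9 ± 1.12 TPM. The level of Uqcrc1 was above that of Uqcrc2 in each library.

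Complex IV, cytochrome c oxidase, has its catalytic core in mitochondrial DNA, so all of its members here are supernumerary subunits. Cox4i1, the largest of them, was at 540, 563 and 570 TPM. Cox6a1 followed at 390, 379 and 352 TPM and Cox8a at 282, 303 and 239 TPM. The lowest of the broad forms were Cox7b (109, 139 and 95.4 TPM) and Cox7a2 (147, 153 and 135 TPM). Cox7c, at 173 ± 12.8 TPM, has a processed pseudogene, Gm12338, whose entry stood higher, at 251, 253 and 244 TPM. That entry matched the gene's most abundant transcript with 91.7% identity over 55.9% of its length.

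The tissue forms of complex IV were almost silent. In 8 of 8 pairs the broad form was the higher one in every library. Cox6a2, the form of heart and skeletal muscle, and Cox8b, known from the same tissues and brown fat, had 0 counts in all 3 libraries, and 0 counts allow up to 3. Against 3 counts over the group, Cox6a1 was at least 2349-fold higher than Cox6a2 and Cox8a at least 853-fold higher than Cox8b, per length. The lower exact 95% limits are 1910- and 694-fold. On M4 counts Cox6a2 had 0, 1 and 1 counts beside 403, 415 and 406 for Cox6a1, a log2 ratio of 8.62 with a pseudocount of 0.5. Cox4i2, the lung and oxygen-responsive form, had 1 count (0, 0 and 0.14 TPM), which gives a pooled ratio of Cox4i1 to Cox4i2 of 11350 with an exact 95% Clopper-Pearson interval of 2037 to 448349. Ndufa4l2, the hypoxia-responsive relative of Ndufa4, had 1 count (0, 0 and 0.11 TPM), for a ratio of 4266 (765 to 168588). Cox8c, a testis form, had 1 count as well. These intervals cover counting error only, and the counts are estimates assigned to genes.

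Cox7a1 and Cox7b2 had 2 counts each, all in 1 library. Cox7a1, the muscle form, was at 0, 0 and 0.45 TPM against 147, 153 and 135 TPM for Cox7a2, a pooled ratio of 882 (244 to 7287). Cox7b2, a testis form, was at 0.47, 0 and 0 TPM, a pooled ratio of Cox7b to Cox7b2 of 851 (235 to 7032). The exception was Cox6b2, the testis form of the subunit that bridges the dimer. It had 11, 7 and 7 counts (2.69, 1.57 and 1.64 TPM) and passed the detection limit in every library. Cox6b1 was at 238, 246 and 226 TPM, 123-fold above it (83.0 to 190). On the scale of log2(TPM + 0.1) that difference was 6.88 ± 0.41, the smallest of the 8 pairs, the others lying between 9.31 and 12.02.

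**Figure D2:**
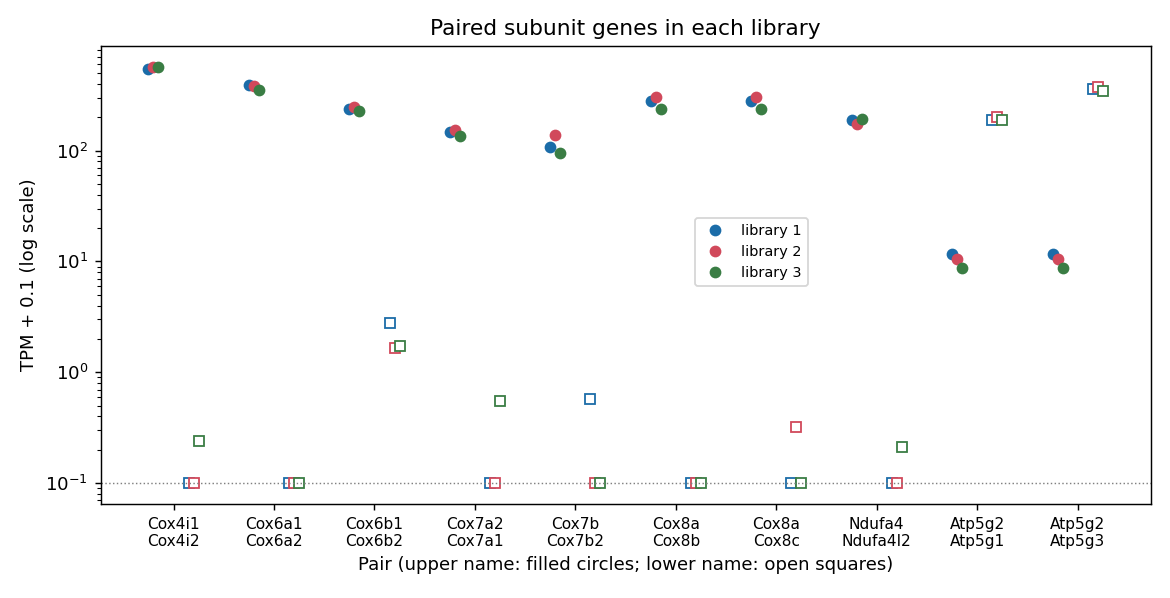
TPM + 0.1 on a log axis in each library for 10 pairs of related subunit genes, the first-named gene as filled circles and the second as open squares; the dotted line is the value of a gene listed at 0. In the 8 pairs on the left the broad form lies above 90 TPM and, apart from Cox6b2, the restricted form lies below 1 TPM in every library; in the c ring pairs on the right Atp5g2 lies below both Atp5g1 and Atp5g3.

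Complex V was led by the F1 head, where ATP is made. Atp5b, the catalytic beta subunit, was the highest member of all, at 1000, 997 and 1066 TPM, and ranked 104 among the 22028 protein-coding genes. Atp5a1, the alpha subunit, was at 524, 477 and 557 TPM. The assembled head holds several alpha and beta subunits and single gamma, delta and epsilon subunits. Relative to the gamma gene Atp5c1 (262 ± 6.51 TPM), the level was 3.90 ± 0.18 for Atp5b, 1.99 ± 0.18 for Atp5a1, 0.90 ± 0.037 for the delta gene Atp5d and 0.72 ± 0.080 for the epsilon gene Atp5e. Atp5b stood above Atp5a1 in each library, although the complex holds as many alpha as beta subunits. Of the peripheral stalk, Atp5h was highest at 399 ± 8.66 TPM, with Atp5j at 246 ± 13.2, Atp5f1 at 211 ± 17.5 and the main entry of Atp5o at 157 ± 18.0 TPM. Transcripts not annotated as protein coding held 36.2%, 72.7%, 70.6% and 41.5% of the TPM of these genes, in that order. Atp5h shares 66.6% of its 50-base words with other genes. A further Atp5o entry, ENSMUSG00000116933, spans chr16:91684398-91926982 on the minus strand, overlaps both Atp5o and Donson, and shares 89.8% of its 50-base words with other genes. It was at 45.2, 26.3 and 22.7 TPM, which cannot be told apart from reads of those genes.

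The c ring, which turns as protons pass, is made of 1 mature protein encoded by 3 genes. Atp5g1 lies at chr11:96068852-96075670, Atp5g2 at chr15:102662864-102672352 and Atp5g3 at chr2:73908447-73911326, all on the minus strand of mm10. Atp5g3 was at 359, 372 and 346 TPM, Atp5g1 at 190, 199 and 188 TPM, and Atp5g2 at 11.7, 10.5 and 8.57 TPM. Of the summed 561 ± 19.3 TPM, Atp5g3 gave 63.9 ± 0.15%, Atp5g1 34.2 ± 0.39% and Atp5g2 1.82 ± 0.25%. On the scale of log2(TPM + 0.1), the difference of Atp5g2 from Atp5g1 was -4.23 ± 0.21 and that from Atp5g3 was -5.13 ± 0.19.

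The level of Atp5g2 depends on a pseudogene entry. The transcribed processed pseudogene Gm10175 matched the most abundant Atp5g2 transcript with 100.0% identity over 88.2% of its length, shared 87.4% of its 50-base words, and stood at 149, 223 and 137 TPM, in each library above Atp5g2. With the TPM of matching pseudogene entries added to each gene, the difference of Atp5g2 from Atp5g1 shrank to -0.28 and that from Atp5g3 to -1.01 on the same log2 scale, an alternative added after the data were seen. Gm10039, which matched Atp5g1 with 99.8% identity over 69.0% of its length, was at 26.7, 22.3 and 18.2 TPM. Atp5g3 shared no 50-base word with another gene.

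The promoters of the c ring genes are shown because the 3 genes encode 1 mature protein. Their listed levels differ, but that of Atp5g2 depends on the pseudogene entry, and a link between level and promoter was not tested. Sequences are from RefSeq on GRCm38.p6, the 250 bases before the annotated start, 5′ to 3′ on the gene's strand. Capitals mark GCATGCGC, bound by NRF1, and AAGGTCA, the core letters bound by estrogen-related receptors, on either strand.
Atp5g3, chr2:73911327-73911576, minus strand: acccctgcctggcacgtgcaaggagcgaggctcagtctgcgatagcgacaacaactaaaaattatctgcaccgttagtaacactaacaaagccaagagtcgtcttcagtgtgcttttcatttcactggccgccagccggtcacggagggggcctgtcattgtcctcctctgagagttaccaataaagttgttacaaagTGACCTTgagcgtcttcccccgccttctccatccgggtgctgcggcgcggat
Atp5g1, chr11:96075632-96075881, minus strand: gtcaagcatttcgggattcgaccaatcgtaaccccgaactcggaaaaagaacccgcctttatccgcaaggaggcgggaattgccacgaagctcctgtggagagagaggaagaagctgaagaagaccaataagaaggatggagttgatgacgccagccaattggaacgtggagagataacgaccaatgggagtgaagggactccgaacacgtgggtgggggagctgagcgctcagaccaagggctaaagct
Atp5g2, chr15:102671048-102671297, minus strand: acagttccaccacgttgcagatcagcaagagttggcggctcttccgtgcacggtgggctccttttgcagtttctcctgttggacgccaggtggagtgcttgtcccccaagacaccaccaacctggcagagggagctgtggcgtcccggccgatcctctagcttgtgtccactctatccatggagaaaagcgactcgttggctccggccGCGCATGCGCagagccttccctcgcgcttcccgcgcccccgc
Atp5g3, the highest of the 3, carries the receptor letters, Atp5g2 carries overlapping copies of the NRF1 letters on both strands (the motif's reverse complement overlaps it), and Atp5g1 carries neither in this window. The start in the RefSeq table lies 80 bases from that of the most abundant M21 transcript for Atp5g2, 12 for Atp5g1 and 0 for Atp5g3.

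Across the set, promoters were found for 76 of the 94 members, by symbol or gene ID, and 4 short motifs were counted on both strands in the 300 bases from 250 before to 50 after the start. Where a gene has several entries, as 5 members do, the first listed was counted, in members and background alike. The NRF1 motif (GCATGCGC) was in 12 of the 76 (15.8%), beside 6.35% of 7824 detected genes and 2.80% of all 27025 genes in the table. The receptor motif (AAGGTCA) was in 8 members (10.5%), beside 2.95% of detected and 4.66% of all genes. The YY1 motif (AAGATGG) was in 11 (14.5%, beside 8.14% and 6.48%). The ETS motif (CCGGAAG), bound by GABP and other ETS factors, was in 17 (22.4%), close to the 21.9% of detected genes and above the 9.12% of all genes. The entry of Atp5j nearest its M21 start, which is not its first, holds the YY1 and ETS letters and is not in these counts. None of the 4 restricted genes in the table held any of these motifs. A match describes letters only and is not a bound site.

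Promoters of 2 members with the NRF1 motif, of complexes II and IV, and of a broad and a restricted Cox8 gene are shown as examples. Capitals mark GCATGCGC and the ETS motif CCGGAAG on either strand in the 250 bases before the start.
Sdhb, chr4:140961021-140961270, plus strand: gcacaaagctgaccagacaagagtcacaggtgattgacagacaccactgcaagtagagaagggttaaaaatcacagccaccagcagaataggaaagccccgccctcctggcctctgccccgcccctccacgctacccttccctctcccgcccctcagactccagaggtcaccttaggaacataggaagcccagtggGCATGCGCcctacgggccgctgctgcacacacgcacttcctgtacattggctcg
Cox6a1, chr5:115348959-115349208, minus strand: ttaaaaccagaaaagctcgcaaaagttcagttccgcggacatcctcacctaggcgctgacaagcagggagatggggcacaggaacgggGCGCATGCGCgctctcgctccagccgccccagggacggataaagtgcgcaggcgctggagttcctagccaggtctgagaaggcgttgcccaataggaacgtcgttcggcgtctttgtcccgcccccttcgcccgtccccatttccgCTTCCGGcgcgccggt
Cox8a, chr19:7217617-7217866, minus strand: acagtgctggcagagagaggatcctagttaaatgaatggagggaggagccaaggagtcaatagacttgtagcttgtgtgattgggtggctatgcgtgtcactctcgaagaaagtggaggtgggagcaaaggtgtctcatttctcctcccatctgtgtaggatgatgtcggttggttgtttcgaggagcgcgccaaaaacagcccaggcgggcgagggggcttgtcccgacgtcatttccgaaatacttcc
Cox8b, chr7:140900447-140900696, minus strand: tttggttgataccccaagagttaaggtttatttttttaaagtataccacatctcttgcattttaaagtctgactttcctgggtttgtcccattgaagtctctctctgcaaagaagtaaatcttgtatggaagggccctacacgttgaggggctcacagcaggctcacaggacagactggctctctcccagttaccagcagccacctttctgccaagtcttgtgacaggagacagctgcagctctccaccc
Cox6a1 holds both motifs and 32 CpG dinucleotides in its 300 bases, and Sdhb holds the NRF1 letters and 15 CpG, with an ETS match after the start. Cox8a, at 274 ± 32.8 TPM, has 19 CpG and its ETS match falls after the start, outside the bases shown. Cox8b, with 0 counts, has 2 CpG and no motif. The other restricted genes with a promoter, Cox7a1, Cox6b2 and Cox7b2, have 7, 10 and 10 CpG. Among the broad complex IV genes with a promoter, CpG ran from 5 in Cox7b to 35 in Cox5a, and neither of these 2 holds a motif. The median was 20 CpG for members other than the restricted forms, 22 for detected genes and 7 for all genes.

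The factors named for these motifs were themselves present. Nrf1 was at 98.5 ± 8.43 TPM, and the GABP subunit genes Gabpb1 and Gabpa at 108 ± 8.36 and 38.6 ± 3.48 TPM. Yy1 was at 19.7 ± 6.70 TPM and Esrra, an estrogen-related receptor, at 11.6 ± 1.64 TPM. Tfam, which packages mitochondrial DNA and acts in its transcription, was at 72.0 ± 6.98 TPM. Of the 13 regulators listed, 12 were detected. The exception was the coactivator Ppargc1a, at 0.16 ± 0.065 TPM with 21 counts, whereas its relatives Pprc1 (58.5 ± 7.63 TPM) and Ppargc1b (14.4 ± 0.19 TPM) were detected.

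Genes that work with the members were at graded levels. All 13 mitochondrially encoded subunits were detected, from mt-Nd4l at 155 ± 48.7 TPM to mt-Co3 at 6236 ± 666 TPM, with a median of 1253 ± 149 TPM. They held 2.47 ± 0.23% of TPM, more than the 94 nuclear members together. Next to mt-Co3, a complex IV subunit, the highest were those for complexes V and IV, with mt-Atp6 at 4206 ± 438 and mt-Co1 at 3397 ± 504 TPM. The 14 genes of the tricarboxylic acid cycle, all detected, had a median of 94.3 ± 1.43 TPM, led by Mdh2 (374 ± 58.8), Ogdh (201 ± 16.3) and Idh3g (172 ± 1.56). Of 39 assembly factors outside the symbol rule 38 were detected, with a median of 33.0 ± 2.05 TPM, and Cox16 (156 ± 12.1), Cox14 (105 ± 3.17) and Cox20 (94.1 ± 0.66), all of complex IV, were highest. These lists were described by counts and medians, without a test.

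Among the 9 genes listed with the electron and nucleotide carriers, the phosphate carrier Slc25a3 was highest at 538 ± 12.5 TPM. The adenine nucleotide translocase Slc25a5 followed at 528 ± 24.1 TPM. The heart and muscle translocase Slc25a4 was at 72.6, 65.7 and 76.5 TPM, so that Slc25a5 was 7.39-fold higher (7.14 to 7.66 by the exact 95% interval). On M4 counts the direction turned, with a log2 ratio of -0.32, whereas M21 expected counts without length correction gave 2.25. The testis translocase Slc25a31 had 0 counts, at least 10958-fold below Slc25a5 when set against 3 counts over the group. Cyc1, the cytochrome c1 of complex III, was at 184 ± 13.9 TPM. Cytochrome c itself, Cycs, was at 24.2 ± 2.72 TPM, below the median of every complex, and its testis form Cyct had 1 count. The log2 ratio of Cycs to Cyct was 9.08 on M21 expected counts without length correction and 3.95 on M4 counts. Shared words and pseudogene matches were examined for the members only, not for these carriers, so the level of Cycs was not checked against them.

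Members that assist assembly were the lowest class apart from the restricted forms. Cox7a2l, known for a role in supercomplexes of complexes III and IV, was the exception, at 189, 245 and 206 TPM. The allele and the product of Cox7a2l in this strain were not examined. Ndufaf8 followed at 46.5, 35.4 and 43.0 TPM. The lowest were Ndufaf2 (7.77 ± 1.50 TPM) and Ndufaf1 (10.2 ± 2.50 TPM). On the TPM scale all 8 Ndufaf genes were lowest in library 2, where the median detected protein-coding gene was lowest too (32.4, 29.8 and 32.0 TPM). On scaled counts Ndufaf8 was lowest in library 1.

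Splice forms known to depend on tissue were resolved in the transcript tables. Atp5c1-203, which has 10 exons, made up 80.8, 76.8 and 77.8% of Atp5c1 TPM, and Atp5c1-201, with 9 exons, 16.2, 21.4 and 19.4%. Heart and skeletal muscle are known for a gamma form that skips an exon near the end of the coding region. The short form Ndufv3-202, with a coding sequence of 312 bases, made up 63.2, 67.0 and 59.0% of Ndufv3 TPM, and the long form Ndufv3-201, with 1404 bases, 29.6, 26.3 and 34.1%. In every library the leading form of both genes was above the other by more than its spread.

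For some members a transcript that is not annotated as coding led. Of the 85 members at 10 TPM or more on average, the most abundant transcript had at least 90% of the TPM in 28 and at least 50% in 69. In 21 it was annotated as other than protein coding. The same shares over all detected genes were not computed, so whether these counts are unusual was not tested. Over the 85 members, protein-coding transcripts held 71.0 ± 0.82% of TPM, retained introns 13.9 ± 0.61%, processed transcripts 11.3 ± 0.37% and targets of nonsense-mediated decay 3.87 ± 0.068%. Ndufa10 was the most divided, with its leading transcript, the retained intron Ndufa10-204, at 23.0 ± 2.08% and the full-length coding Ndufa10-201 at 2.13 ± 0.88%. In Ndufs4 the leading Ndufs4-202, annotated for nonsense-mediated decay, had 38.5 ± 2.00%, and Ndufs4-201, with the longest coding sequence, 2.71 ± 0.48%. Ndufa6-201 (36.1 ± 4.36%) and Ndufb8-201 (37.2 ± 8.85%) are coding, whereas Ndufab1-205 (38.2 ± 4.44%, retained intron) and Cox7c-201 (38.5 ± 3.12%, processed transcript) are not. Reads of 50 bases fit several overlapping transcripts, so these shares are estimates whose error the spread between libraries does not cover. The gene levels and complex medians given above sum transcripts of all annotated types.

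**Figure D3:**
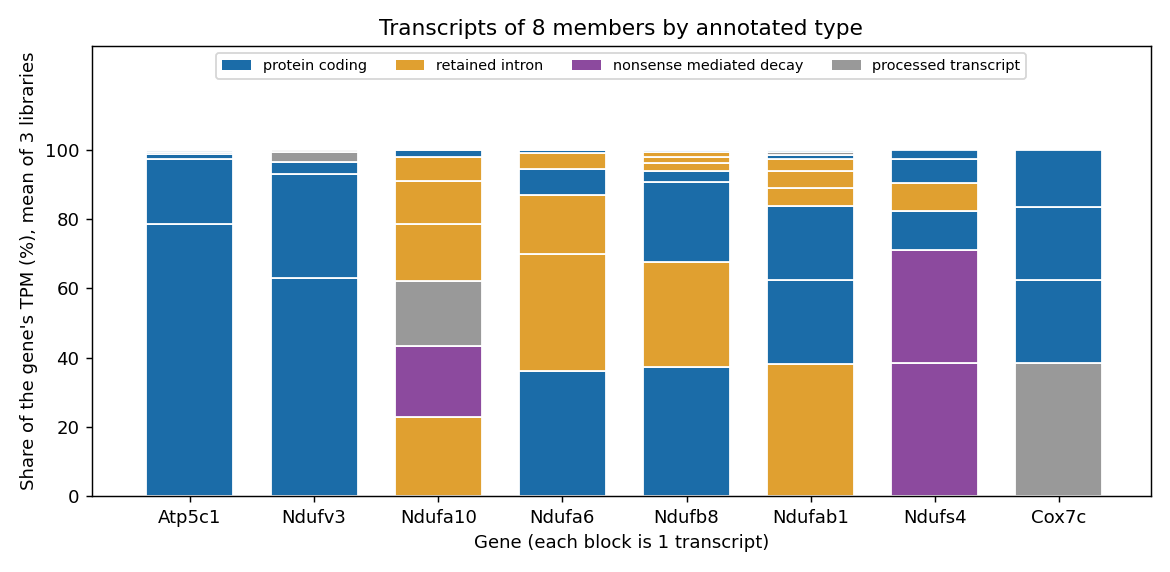
Mean share of each gene's TPM given to each transcript, in percent over 3 libraries, for Atp5c1, Ndufv3 and the 6 members whose leading transcript had the lowest share; each block is 1 transcript, coloured by its annotated type. Coding transcripts fill nearly all of Atp5c1 and Ndufv3, while Ndufa10 is mostly types other than protein coding.

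Members differed between libraries about as often as other genes. By a chi-square test of homogeneity on rounded expected counts, with Benjamini-Hochberg adjustment over 13090 genes, 40.0% of all genes and 37 of 86 tested members (43.0%) had adjusted p under 0.05. Of the 37, 24 were highest in library 2, 10 in library 3 and 3 in library 1. Calls fell on 13 of 17 complex V subunits, 7 of 11 broad complex IV subunits and 7 of 36 complex I subunits, with a median count per library of 1285, 1011 and 670 in those groups. They also fell on 5 of 8 complex III subunits, 2 of 4 complex II subunits and 3 of 10 assembly members, with medians of 1185, 1501 and 148 counts. The test asks only whether the spread exceeds counting noise, and for a single gene it reaches smaller differences at higher counts. Without library 2 the test called 17 of 86 members, beside 14.7% of all genes, and on M4 counts it called 6 of 84, beside 18.9%.

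The sizes were small. Among called members with at least 100 counts, the highest scaled count exceeded the lowest most in the second Atp5o entry (1.99-fold, adjusted p = 4.26e-08) and in Atp5mpl, a small membrane subunit of complex V (1.60-fold, adjusted p = 1.22e-07). Ndufa6 followed, with 959, 1378 and 868 scaled counts (1.59-fold, adjusted p = 1.33e-30), then Cox7b with 530.0, 741 and 482 (1.54-fold, adjusted p = 3.22e-14). Ndufaf1, at 1.51-fold, was highest in library 3 (adjusted p = 0.00582). In Ndufa6, Cox7b and Atp5mpl library 2 stood above both others. Sdha (6045, 5482 and 6496 scaled counts, adjusted p = 3.21e-19) and Uqcrc1 (3839, 3313 and 4019, adjusted p = 4.10e-16) were lowest in library 2.

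Length moved with this difference. Of the 43 tested members of up to 660 bases, 34 were higher in library 2 than in the mean of libraries 1 and 3, with a median log2 difference of 0.098. Of the 43 longer ones, 23 were higher, with a median of 0.037. Genes outside the set divided at the same length differed in the same direction: 73.6% of 265 shorter and 45.1% of 9462 longer detected genes were higher in library 2. Across 86 members the correlation of the log2 difference with log2 length was -0.38 (Pearson) and -0.34 (Spearman), a description over genes that share the same libraries. The part of length in these calls was not tested.

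**Figure D4:**
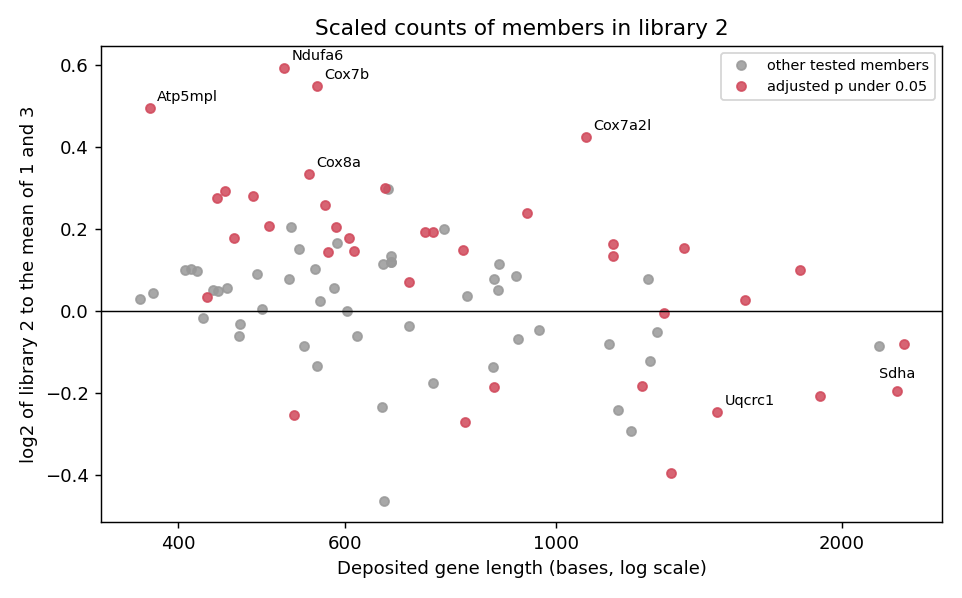
Log2 of the scaled count in library 2 over the mean of libraries 1 and 3, against the deposited gene length in bases on a log axis, 1 point per tested member; red points had adjusted p under 0.05. Ndufa6, Cox7b, Atp5mpl and Cox7a2l lie highest, and the long genes Sdha and Uqcrc1 lie below 0.

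Some members share sequence with other genes, through copies elsewhere or through genes that overlap them. Words were compared on both strands, so overlapping genes at the same locus count as well. Uqcrc2 shared 24.8% of its words with Pdzd9, which overlaps it on the opposite strand, and no word with a pseudogene. The matching shares over all genes were not computed. No 50-base word of the most abundant transcript was shared with another gene for 48 members, more than 20% were shared for 22 and more than 50% for 7. Matches of at least 90% identity over at least 50% of that transcript were found to 41 pseudogene entries for 23 members, of which 32 were under 1 TPM and 5 at 10 TPM or more. The 2 members below such an entry were Atp5g2 and Cox7c. Whole-number counts on the older M4 annotation were a median of 50.5% of the M21 expected counts for 41 members with no shared word and 21.5% for 21 with more than 20% shared. M4 counts reached at most 1.90 per base of gene length, beside 9.86 for M21 expected counts, and whether duplicate reads were removed before M4 counting is not given in the sources used here, so M4 values may not scale with level. They fell to 1.89% of M21 for Atp5l, 1.93% for Atp5g1, 2.17% for Ndufab1 and 5.25% for Cox7c. Across 85 members Spearman's rho between the shared percent and the M4 percent was -0.52, given as a description.

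**Figure D5:**
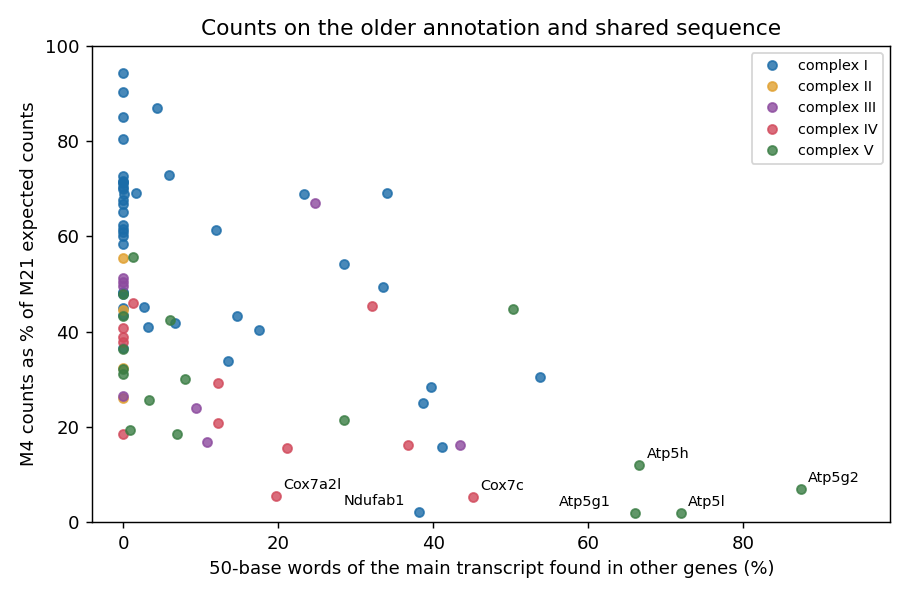
M4 counts as a percent of M21 expected counts, summed over 3 libraries, against the percent of 50-base words shared with other genes, 1 point per member with at least 100 counts, coloured by complex. Atp5l, Atp5g1, Ndufab1, Cox7c, Cox7a2l and Atp5g2 lie below 10% on the vertical axis, and members with no shared word spread from 18.6 to 94.4%.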

How the data were processed

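Expected counts (reads assigned by estimation), TPM and isoform percent were deposited by the authors for each library on GENCODE M21 and mm10, per the file headers and the accompanying text. Whole-number counts per gene on M4 were deposited beside them. The aligner, the counter and any strand setting were not given in the sources used here. Length minus effective length was 49, so reads were taken as 50 bases. Entries that name no gene (0.247%, 0.200% and 0.325% of expected counts) were left out of tests.

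Members, lists, pairs and markers were chosen with earlier results of these data known. Named genes were the paralog groups, the core subunits, the 3 highest and 2 lowest structural subunits of each complex, the 2 highest and 2 lowest assembly members, the 5 called members of at least 100 counts that differed most between libraries, Atp5c1, Ndufv3 and the 6 members with the lowest leading transcript share. Others were named after their values were seen, and a few items are not reported here.

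Rounded expected counts of genes with a mean of at least 10 were tested with a chi-square test on TMM-scaled libraries (edgeR 4.0.16) and Benjamini-Hochberg adjustment at 0.05. The test was run on simulated data with counting noise only and library totals. That setting is simpler than estimated counts on TMM-scaled libraries, so it does not give the error rate in these data. Pair ratios used a pseudocount of 0.1 TPM and exact 95% intervals from counts per length. Pseudogene matches used blastn 2.17.0. Alternatives included DESeq2 1.42.0 size factors, other pseudocounts and filters, posterior mean TPM and M4 counts. Reads carry no molecular identifiers, so intervals and limits cover counting error only.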

Additional observations from a re-analysis of the deposited data

How the results depend on the processing

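No comparison between groups, paired or not, was possible because there is only 1 group, and ratios between genes were taken within each library. Complex medians moved with the scale of TPM: with posterior mean TPM they were 85.1 (I), 116 (II), 147 (III), 126 (IV), 169 (V) and 95.6 TPM (all members), and the members' share of TPM was 1.16%. With TPM rescaled over nuclear protein-coding genes without ribosomal protein genes they were 127, 174, 222, 190, 256 and 143 TPM, and the share was 1.74%. With only detected subunits, complex IV was at 208 TPM and all members at 121 TPM. With pseudogene matches to the most abundant transcript, complex V was at 209 TPM and all members at 113 TPM. Members called between libraries numbered 6 of 84 on M4 counts, and 17 to 30 when 1 library was left out, the lowest without library 2. The 8 pairs kept the broad form higher under each alternative run. The log2 ratio of Slc25a5 to Slc25a4 reversed on M4 counts, at -0.32, and was 2.25 on M21 expected counts without length correction. The cause of these differences was not tested. Ratios against restricted genes of 0 to 2 counts are limited by depth and moved with the pseudocount, from 9.06 to 14.46 for Cox4i1 to Cox4i2.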

Other observations

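M4 counts were also lower where coverage was higher. For the 41 members with no shared word, Spearman's rho between M21 expected counts per base and the M4 percent was -0.62, a description across genes of the same libraries. The median M4 percent was 66.9% for the 21 members up to 1.07 counts per base and 44.8% for the other 20. Atp5b had 13395, 16755 and 16655 expected counts on M21 but 2976, 3037 and 3018 counts on M4, the highest M4 value per base of any member (1.90, against 9.86 on M21). Over all members M4 counts were 35.9% of M21 expected counts, and over all genes 33.1%.

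Exons of 29 members overlap those of genes on the opposite strand, among them Atp5j and Gabpa (397 bases), Atp5f1 and Wdr77 (337 bases) and Cox4i1 and Emc8 (154 bases). Gabpa was at 38.6 ± 3.48 TPM, Wdr77 at 56.5 ± 1.69 TPM and Emc8 at 51.7 ± 12.2 TPM. Where counting did not use strand, reads of such partners cannot be told apart over the shared bases.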
